A study of Drosophila melanogaster with 13 samples.

Results

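The odorant-binding protein (OBP) genes of Drosophila melanogaster were followed in heads of newly emerged adults that had grown up on 2 diets. Members are the genes whose FlyBase symbol starts with Obp and a digit, plus lush and Os-C. Of 17370 counted genes 53 are members, and the 29 with 10 or more reads in at least 3 of the 13 libraries are described here. The other 24 are accounted for by their reads. Adult heads were compared between 2 larval diets, 2 sexes and 3 isofemale lines named SD2, SD3 and SD6, each founded by 1 wild female. HPS food was rich in protein and low in sugar (ratio of protein to carbohydrate 0.43), and LPS food poor in protein and rich in sugar (ratio 0.1). Each of the 12 combinations was 1 pool of 70 to 80 heads, dissected 2 to 6 h after eclosion, so that each combination has no replicate of its own. The labels name no transgene, mutation or other treatment, and 1 line does not stand for a population. The male LPS SD2 pool was sequenced as 2 libraries, which were summed. The second of these and the male HPS SD2 library came from a smaller sequencing run, and the other 11 libraries from a larger one.

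OBPs are small secreted proteins that bind hydrophobic molecules. In insects many are made by the support cells at the base of sensory hairs and released into the fluid around the neurons, where they bind odorants or tastants, and others are made in glia, fat body, gut or reproductive glands. lush is the best known antennal member: it binds alcohols and is needed for the response of Or67d neurons to the male pheromone cis-vaccenyl acetate. Os-C was isolated as a transcript of the third antennal segment together with Os-E and Os-F, the genes now called Obp83b and Obp83a.

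Depth was 7.84 to 25.3 M gene reads per library and 27.5 M in the summed sample. The line label of 2 libraries is in doubt. On a scale set by 81 genes outside the family on which SD3 is 0 and SD6 is 1, the value was 1.01 for the library labelled male LPS SD3 and 0.0019 for that labelled male LPS SD6. It was −0.039 to 0.0071 over the remaining SD3 samples and 0.984 to 1.01 over those of SD6. These samples set the scale and the genes were chosen to separate them, so their values lie near 0 and 1 by construction. Because of the 2 doubtful labels, tests below use the other 10 samples. Values with all 12 samples, as labelled or with both line labels exchanged, stand beside them. Olfactory organ markers were low in these heads. Of 14 listed markers 8 were detected, their summed level was 20.3 to 32.8 CPM (counts per 1 M gene reads, TMM-scaled), and a5 and Or83c were at 0 in every sample. Ir8a reached at most 0.066 CPM. The co-receptor genes Orco, Ir25a and Ir76b were at 1.23 to 2.64, 1.32 to 4.31 and 1.65 to 4.12 CPM, and Snmp1, a membrane protein of pheromone-sensing neurons, at 8.48 to 13.6 CPM. Gr21a reached 11.6 CPM in SD3. The summed eye markers were at 27814 to 38530 CPM.

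Several antennal genes are among the 24 members below the read minimum. Of these 24, 7 had no read in any library, and no library held more than 9 reads of any of them. Obp83a, a major antennal OBP, had 66 reads over all 13 libraries, Obp69a had 55, Obp19a 24, Obp84a 17 and Obp83b 15. Obp57e, which with Obp57d takes part in the taste response to host plant acids, had 17 reads. Obp57d had 0 reads. In the BDGP6.54 annotation all 1488 of its exonic bases lie in exons of Cpr57A on the same strand. Obp50b and Obp50c overlap each other in the same way and were also at 0. With such an overlap, reads could not be assigned to one gene. The annotation behind the deposited counts is not given, and the part of overlap in these 0 values was not tested. None of the 29 described genes shares exonic bases with another gene on its strand.

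The family made up 0.334% to 0.468% of the gene reads in the 10 samples. A single member, Obp44a, held 42.0% to 63.5% of these reads. Obp44a is known from glia of the larval brain, where its product binds fatty acids. With Obp99c and Obp56e it accounted for 68.4% to 85.2% of the family's reads. Scaled to exon length, Obp44a had a median of 1934 CPM per kb, followed by Obp56e at 866 and Obp99c at 809 CPM per kb. Next came Obp56d at 283, Obp57c at 230, Obp19d at 195 and Obp99b at 77.8 CPM per kb. In this order Obp56e and Obp99c overlap in their range over samples, as do Obp56d, Obp57c and Obp19d. lush stood at rank 13 with 32.0 CPM per kb, and the last of the 29, Obp59a, at 0.087 CPM per kb. Obp44a was also the steadiest member, with 1812 to 2813 CPM and a ratio of highest to lowest sample of 1.55. That ratio was 1.60 in Obp83g and 1.66 in Obp49a, whose product is known to let bitter compounds suppress sweet taste. It was 174 in Obp99a, 57.7 in Os-C and 48.9 in Obp28a. No ratio is given for Obp57a, Obp59a and Obp56b, whose lowest sample held 0 or 1 read.

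**Figure D1:**
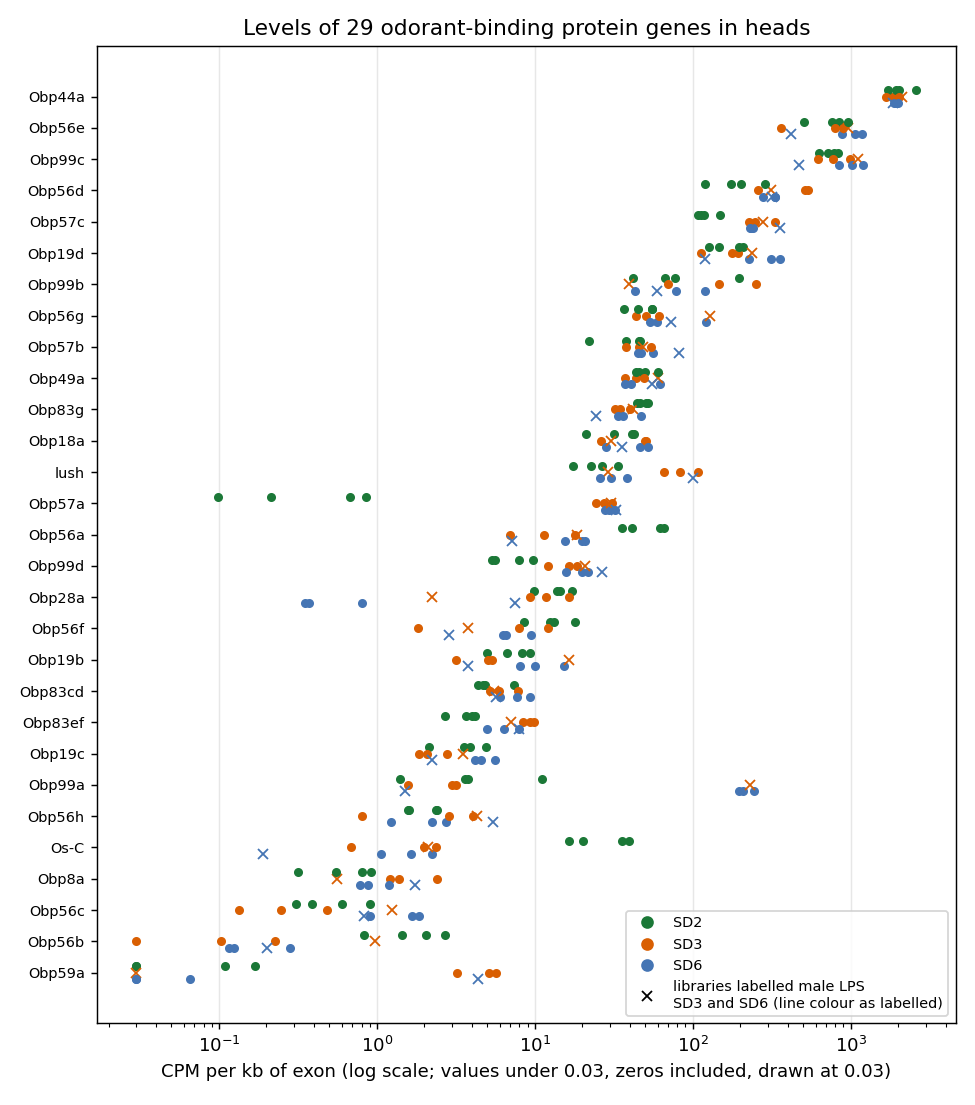
Level of each of the 29 described genes, in CPM per kb of exon on a log axis, ordered by the median of the 10 samples; points are RNA samples coloured by line and crosses are the 2 libraries with a doubtful line label. Obp44a spans 1.55-fold over 10 samples, while Obp57a, Obp99a, Obp28a and Os-C split by line.

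Line was the factor that most members followed. edgeR's quasi-likelihood F-test over the 3 lines called 21 of the 29 members at an adjusted p below 0.05 (Benjamini-Hochberg over all 10028 genes tested, here and below), against 35.5% of all genes. SD3 differed from SD2 in 12 members, 7 higher and 5 lower, where 23.6% of all genes were called, 13.1% higher and 10.5% lower. SD6 differed from SD2 in 16 members, 10 higher and 6 lower (22.7% of all genes, 12.3% and 10.4%). SD6 differed from SD3 in 11 members, 7 higher and 4 lower (20.5% of all genes, 10.1% and 10.4%). With all 12 samples as labelled, these 4 counts were 9, 8, 10 and 0, and the share of all genes called was 9.17%, 9.78%, 10.1% and 0%. In the last of these comparisons 1 member had an unadjusted p below 0.05. With the line labels of both doubtful libraries exchanged, they were 23, 16, 18 and 13, with 45.6%, 30.6%, 27.2% and 30.3% of all genes. Line means lay more than 10-fold apart in 6 of the 29 members (20.7%), against 1.40% of all genes tested. These were Obp57a, Obp99a, Obp28a, Os-C, Obp59a and Obp56b. Outside the 2 doubtful libraries, Obp59a reached 10 reads only in SD3 and Obp56b only in SD2, so both were tested only through the line where they are high. Both are counted in these 6 genes, in the 21 called by line and in the 12 for SD3 against SD2. Obp56b is also in the 16 for SD6 against SD2, and Obp59a in the 11 for SD6 against SD3. Their part in these counts rests on that filter. Outside the same libraries, Obp28a reached 10 reads in SD2 and SD3 but not in SD6. Obp56c did so in SD2 and SD6 but not in SD3. Obp28a is in the 6, the 21, the 16 and the 11, and its part there rests on the filter too. So does the part of Obp56c in the 21 and in the 11 for SD6 against SD3. In bulk heads, fewer cells of a type and less RNA per cell cannot be told apart. The summed larval fat body markers also moved with line, at 52.7 to 212 CPM in SD2, 277 to 703 CPM in SD3 and 148 to 364 CPM in SD6, and their part in the line differences was not tested.

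Obp57a was close to absent from SD2. Its SD2 samples held 0.474 CPM in HPS males, 0.120 in HPS females, 0.378 in LPS males and 0.055 in LPS females, together 19 reads. In SD3 it stood at 15.4, 17.2 and 13.6 CPM (HPS males, HPS females and LPS females), and in SD6 at 16.5, 15.5 and 18.1 CPM in the same order. SD2 did not overlap the other lines, and SD3 and SD6 overlapped. The edgeR log2 difference from SD2 was 5.89 ± 0.28 (SE) in SD3 (adjusted p = 2.1e-08) and 6.03 ± 0.27 in SD6 (adjusted p = 1.05e-08). Of the 19 SD2 reads, 5 and 10 came from the smaller run, and the male LPS SD2 pool gave 1 read in one library and 10 in the other. In the larger run alone, an alternative chosen after seeing the data, the differences were 7.45 and 7.60. Both also passed as labelled, since the 2 doubtful libraries held 16.9 and 18.2 CPM. The gene lies on arm 2R at 20505150 to 20505758 of BDGP6.54, 13 bases past the end of Obp57b, which itself follows Obp57c at a distance of 48 bases on the same strand. These neighbours did not share the SD2 gap. Obp57b averaged 31.2, 37.9 and 40.5 CPM in SD2, SD3 and SD6 and was not called between lines (adjusted p = 0.156). Obp57c was higher by 1.05 ± 0.10 in SD3 and 0.88 ± 0.10 in SD6 than in SD2 (adjusted p = 8.67e-06 and 2.45e-05), from 68.2 CPM in SD2 to 150 and 132 CPM.

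Obp99a was a gene of SD6. It was at 149 CPM in HPS males, 127 in HPS females and 121 in LPS females of SD6. In SD3 the same groups held 0.960, 1.82 and 1.94 CPM, and the 4 SD2 samples held 0.853 to 6.82 CPM. SD6 did not overlap the other lines, while SD2 and SD3 did overlap. The log2 difference was 5.43 ± 0.31 from SD2 (adjusted p = 8.42e-08) and 6.37 ± 0.40 from SD3 (adjusted p = 4.53e-07). The difference from SD2 was 4.84 without male HPS SD6, 6.10 without female LPS SD2 and 6.23 without female LPS SD6, and that from SD3 was 7.15 without female LPS SD6, all called. As labelled, the values were 5.52 (adjusted p = 0.0646) and 2.65 (adjusted p = 0.863), because the library labelled male LPS SD3 held 140 CPM and that labelled male LPS SD6 held 0.926 CPM. Obp99a lies on arm 3R at 29671657 to 29672334, at the end of a group of 4 family genes. The others moved less between lines. Obp99c was 0.42 ± 0.13 higher in SD6 than in SD2 (adjusted p = 0.0341), a call lost in 6 of the 10 fits that leave out 1 sample, of any line but SD3. Those 6 adjusted p-values ran from 0.0639 to 0.188. Obp99d was higher than in SD2 by 1.04 ± 0.15 in SD3 and 1.33 ± 0.14 in SD6 (adjusted p = 0.000272 and 1.49e-05). Obp99b was lower in SD6 than in SD3 by 0.90 ± 0.14 on the log2 scale (log2 difference −0.90, adjusted p = 0.000811).

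Obp28a, whose product is among the abundant OBPs of the antenna, was low in SD6. SD6 samples held 0.213 CPM in HPS males, 0.465 in HPS females and 0.201 in LPS females, a total of 15 reads. SD2 ranged from 5.68 to 9.84 CPM and SD3 from 5.40 to 9.49 CPM. SD6 lay below every sample of the other lines, which overlapped each other. The log2 difference of SD6 was −4.87 ± 0.26 from SD2 and −4.72 ± 0.27 from SD3. No SD6 sample reached 10 reads, so the place of Obp28a among the 29 rests on the other lines and no test is given. The library labelled male LPS SD3 held 1.28 CPM and that labelled male LPS SD6 held 4.28 CPM, both between the levels of SD6 and of the other lines. As labelled, the difference from SD3 was −2.52.

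Os-C was a gene of SD2. Its SD2 samples held 23.8 CPM in HPS males, 21.7 in HPS females, 12.2 in LPS males and 9.89 in LPS females. SD3 held 0.412 to 1.43 CPM and SD6 held 0.644 to 1.35 CPM, so that both lay below the lowest SD2 sample and overlapped each other. The log2 difference from SD2 was −4.26 ± 0.18 in SD3 (adjusted p = 9.48e-09) and −4.18 ± 0.16 in SD6 (adjusted p = 2.39e-09). Both also passed as labelled (−3.89 and −4.33).

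Obp59a, which is needed for sensing humidity, was read almost only in SD3. It had 159 reads in the 3 SD3 samples, 7 in the 4 SD2 samples and 1 in the 3 SD6 samples. SD3 levels were 3.24 CPM in HPS males, 5.72 in HPS females and 5.18 in LPS females. Scaled to gene reads, SD3 stood 259-fold above SD6 (95% interval for counting error 45.8 to 10282) and 48.8-fold above SD2 (23.1 to 123). It reached 10 reads only in these SD3 samples and in the library labelled male LPS SD6, which held 4.40 CPM. No test is given, since its place among the 29 rests on SD3. Obp56b, at the low end too, had 80 reads in SD2, 2 in SD3 and 6 in SD6. Scaled to gene reads, SD2 stood 18.6-fold above SD3 (95% interval for counting error 4.99 to 156). Its place among the 29 rests on SD2, so no test is given.

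**Figure D2:**
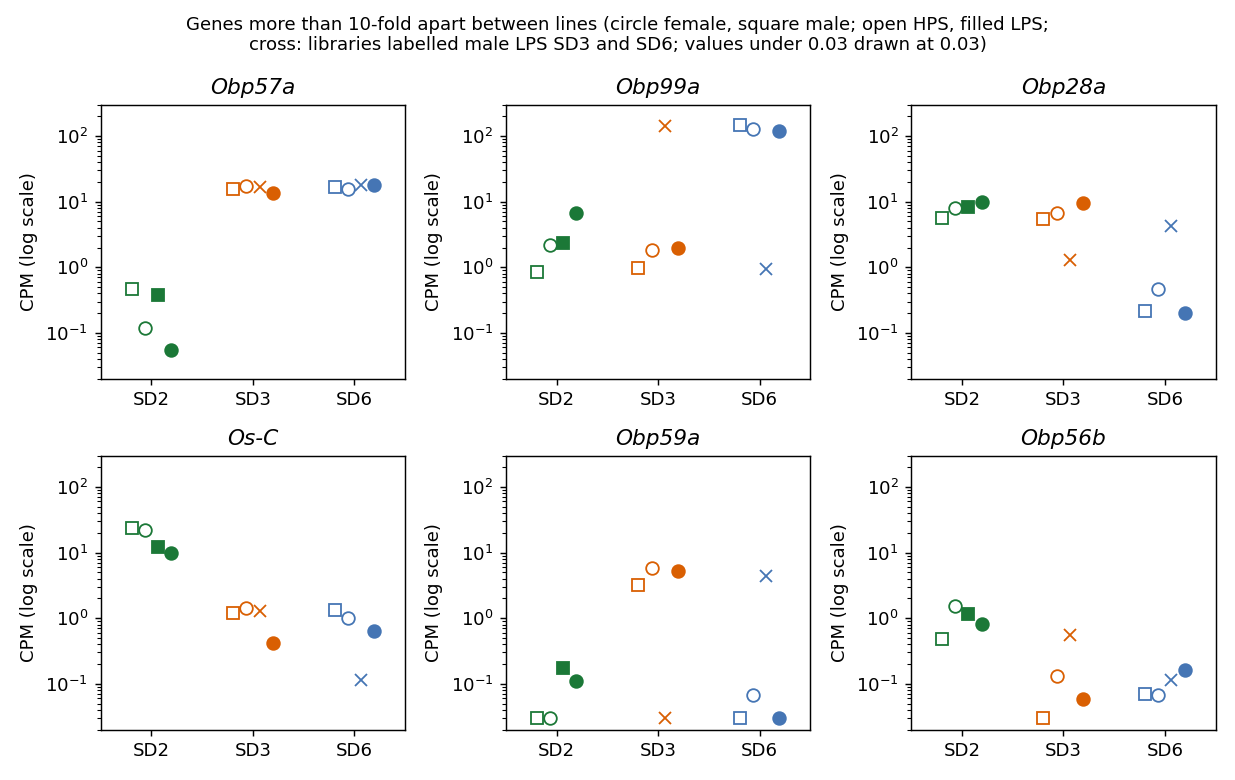
CPM on a log axis of the 6 genes with line means more than 10-fold apart, by line; circles are females, squares males, open symbols HPS, filled symbols LPS, and crosses the 2 libraries with a doubtful line label, each drawn under its labelled line. Obp99a, Obp28a and Obp59a put the library labelled male LPS SD3 away from the other SD3 samples, while Obp57a is alike in SD3 and SD6.

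The pheromone-binding gene lush was highest in SD3. It stood at 106 CPM in HPS males, 81.2 in HPS females and 64.0 in LPS females of SD3. SD2 held 17.1 to 33.0 CPM and SD6 held 25.4 to 37.8 CPM, below every SD3 sample and overlapping each other. The log2 difference was 1.68 ± 0.13 between SD3 and SD2 (adjusted p = 1.76e-06) and −1.43 ± 0.14 between SD6 and SD3 (adjusted p = 1.46e-05). In the libraries labelled male LPS SD3 and male LPS SD6 lush was at 28.4 and 98.1 CPM. The receptor gene Or67d, which is expressed in the neurons that lush serves, was at 0.989 to 2.18 CPM in SD2, at 0.240 CPM in HPS males, 1.30 in HPS females and 0.648 in LPS females of SD3, and at 0 to 0.133 CPM in SD6. The log2 difference of SD6 in Or67d was −3.50 ± 0.83 from SD3 and −4.54 ± 0.65 from SD2. No SD6 sample reached 10 reads of it, so it was tested only through SD2 and SD3 and no test is given.

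The cluster of Obp56 genes on arm 2R was split in direction. Obp56a was highest in SD2 (19.5 to 35.9 CPM), lower in SD3 (−2.24 ± 0.16, adjusted p = 7.77e-07; 3.84 to 9.88 CPM) and lower in SD6 (−1.55 ± 0.14, adjusted p = 3.9e-06; 8.53 to 11.4 CPM). Obp56f was also lower in SD3 (−1.04 ± 0.27, adjusted p = 0.0126) and SD6 (−1.01 ± 0.24, adjusted p = 0.00958), the latter lost without female LPS SD6 (−0.87, adjusted p = 0.0759). Obp56d ran the other way, from 180 CPM in SD2 to 404 CPM in SD3 and 289 CPM in SD6, with log2 differences of 1.09 ± 0.15 and 0.68 ± 0.15 (adjusted p = 0.000248 and 0.00577). Without the male HPS SD6 sample the SD6 value was 0.42 (adjusted p = 0.0615). Obp56e differed only between SD6 and SD3 (0.69 ± 0.16, adjusted p = 0.0099), a call lost without male HPS SD6 (adjusted p = 0.0631) or female LPS SD3 (adjusted p = 0.0547). Of the X-linked genes, Obp19d was higher in SD6 by 0.72 ± 0.08 than in SD2 and by 0.91 ± 0.09 than in SD3 (adjusted p = 3.95e-05 and 1.43e-05). Obp19b, which takes part in the taste of amino acids, was 1.23 ± 0.30 higher in SD6 than in SD3 (adjusted p = 0.0111), and 0.94 without male HPS SD3 (adjusted p = 0.0564).

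The members not called by the F-test over lines were Obp44a, Obp49a, Obp56h, Obp18a, Obp56g, Obp57b, Obp83cd and Obp8a, with edgeR adjusted p from 0.0723 (Obp56g) to 0.772 (Obp49a). Obp8a, with 2 to 16 reads in each of the 10 samples, was at 0.720 to 1.43 CPM in SD3 and at 0.189 to 0.711 CPM in the other lines. The lowest SD3 sample (male HPS, 6 reads) and the highest of the other lines (male HPS SD6, 10 reads) were too close for such counts to separate. Obp56g is known from the male ejaculatory system and the seminal fluid, and Obp56h from male mating behaviour. Obp56g did pass between SD6 and SD2 alone (0.71 ± 0.24, adjusted p = 0.0482). Without the male HPS SD6 sample, which at 60.4 CPM lay above the range of the other 9 (18.2 to 30.1 CPM), that difference was 0.15 (adjusted p = 0.515). SD6 females held 29.3 CPM on HPS and 26.6 CPM on LPS. The doubtful libraries, labelled male LPS SD3 and male LPS SD6, held 63.8 and 35.9 CPM, so the high male HPS SD6 value did not stand alone.

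The larval diet moved fewer members, and each of those that passed was lower after LPS. edgeR called 4 of the 29, Obp99b, Os-C, lush and Obp99d, against 1.43% of all genes in either direction and 1.11% lower (n = 4 LPS and 6 HPS samples, with sex and line in the fit). No member was called higher (0.319% of all genes were): 2 had a higher value at an unadjusted p below 0.05, and DESeq2 and limma-voom called 0 higher. The median log2 difference over the 29 was 0.077, against 0.005 over all genes, and 18 members were above 0. As labelled, 0 members passed by diet where 0.0997% of all genes did, and 3 had an unadjusted p below 0.05. With exchanged line labels 2 passed, Obp99b and Os-C, with 1.71% of all genes.

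Obp99b fell the most. It is also known as tsx, a gene expressed in the fat body of the adult head. On HPS it was at 118, 150 and 71.4 CPM in females of SD2, SD3 and SD6 and at 46.1, 87.5 and 46.3 CPM in males. On LPS the females held 39.7, 41.5 and 25.7 CPM and the SD2 male sample 24.8 CPM. Every LPS sample lay below every HPS sample. Within line and sex, LPS was at 27.7% to 53.8% of HPS in 4 of 4 pairs. The edgeR log2 difference was −1.52 ± 0.12 (adjusted p = 0.000131). As labelled it was −1.35 ± 0.21 (adjusted p = 0.0561), and over the 21 alternatives it ran from −1.64 to −1.35 and passed in 19. In SD2 males LPS was at 51.6% of HPS within the smaller run for Obp99b and also for Os-C. The libraries labelled male LPS SD3 and male LPS SD6 held 23.6 and 35.3 CPM, also below every HPS sample. In females alone the difference was −1.63 ± 0.14 (adjusted p = 0.000517).

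Larval fat body markers had a lower range on LPS, adult ones did not, and both ranges overlapped between diets. The summed level of 6 larval fat body markers, all 6 detected, was 188 to 703 CPM on HPS and 52.7 to 277 CPM on LPS. The 7 adult fat body markers summed to 712 to 6152 CPM on HPS and 935 to 7922 CPM on LPS. The part of these tissues in the lower Obp99b level was not tested.

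Os-C fell by 1.04 on the log2 scale (−1.04 ± 0.13, adjusted p = 0.00165). Most of its reads come from SD2, where HPS males and females held 23.8 and 21.7 CPM and LPS males and females 12.2 and 9.89 CPM. In the other lines it was at 0.996 to 1.43 CPM on HPS and 0.412 and 0.644 CPM on LPS, from 7 to 19 reads per sample. LPS was at 28.8% to 64.7% of HPS in 4 of 4 pairs. The doubtful libraries, labelled male LPS SD3 and SD6, held 1.28 and 0.116 CPM. The call was lost without the female HPS SD2 sample (−0.99, adjusted p = 0.0747) and as labelled (adjusted p = 0.24).

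The calls of lush and Obp99d lay close to the threshold. lush was at 17.1, 64.0 and 25.4 CPM in LPS females of SD2, SD3 and SD6, against 33.0, 81.2 and 37.8 CPM in HPS females. In SD2 males it was at 22.4 CPM on LPS and 26.2 CPM on HPS. LPS was lower in 4 of 4 pairs, at 51.8% to 85.3% of HPS, while the diets overlapped over lines. The male pair crosses sequencing runs: per 1 M gene reads, unscaled, the smaller run gave 27.1 on HPS and 30.0 on LPS, so that LPS was at 110.9% of HPS within that run. The log2 difference was −0.52 ± 0.11 (adjusted p = 0.0437), and it passed in 12 of 21 alternatives. The LPS library of the larger run held 18.9, a difference of 0.67 on the log2 scale between libraries of 1 pool. In the larger run alone lush passed. Leaving out any LPS sample, female HPS SD2 or female HPS SD6 lost the call (adjusted p from 0.0746 to 0.376), and with exchanged labels the adjusted p was 0.117. Obp99d was at 2.69, 6.07 and 7.85 CPM in LPS females against 4.90, 8.19 and 9.89 CPM in HPS females of SD2, SD3 and SD6, and at 2.79 against 3.98 CPM in SD2 males. It was lower in 4 of 4 pairs at 54.9% to 79.3% of HPS (−0.55 ± 0.12, adjusted p = 0.0471). It passed in 5 of 21 alternatives. Leaving out any sample except female HPS SD3 lost the call (adjusted p from 0.0503 to 0.391). The doubtful libraries, labelled male LPS SD3 and SD6, held 10.4 and 13.3 CPM, the second above every other sample. With exchanged labels its adjusted p was 0.459.

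**Figure D3:**
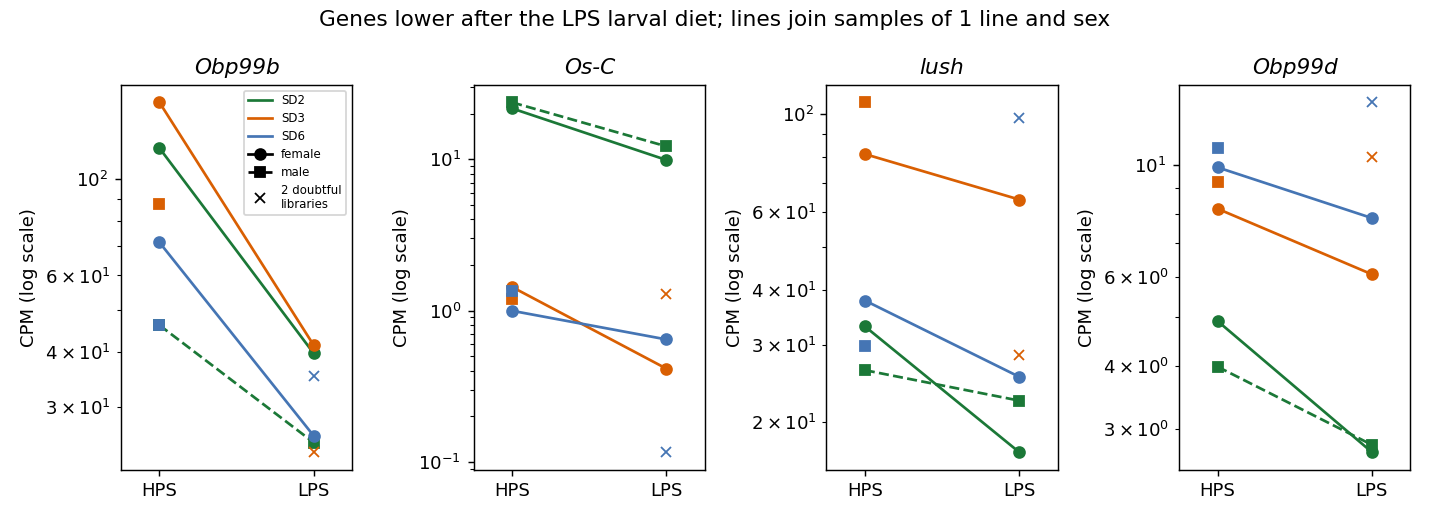
CPM on a log axis of the 4 genes called lower after LPS; lines join the HPS and LPS samples of 1 line and sex (solid with circles, female; dashed with squares, male), unjoined squares are HPS males of SD3 and SD6, and crosses are the 2 libraries with a doubtful line label. All 4 joined pairs go down in each gene, with the male pair joining samples from different sequencing runs; within the smaller run that pair went up in lush (27.1 to 30.0 reads per 1 M) and down in the other 3.

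Among members that did not pass by diet, Obp57b had the next smallest adjusted p (−0.39 ± 0.13, 0.18) and was lower in 4 of 4 pairs. Obp44a was at 0.25 ± 0.08 (95% interval 0.070 to 0.428, adjusted p = 0.185) and was higher on LPS in 4 of 4 pairs, at 103.2% to 129.7% of HPS. For Obp99a the value was 0.18 ± 0.32 and for Obp57a 0.02 ± 0.19.

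By sex, 7 of the 29 members were called and each was lower in males, against 7.96% of all genes in either direction and 5.07% lower in males (n = 4 male and 6 female samples). They were Obp19d, Obp18a, Obp99b, Obp56a, Obp56d, Obp56e and Obp56f. Each was lower in the male of 4 of 4 pairs of 1 line and diet. All female samples came from the larger sequencing run. The male HPS SD2 library and the second male LPS SD2 library came from the smaller one, so the SD2 pairs cross runs. No member was called higher in males, as 2.89% of all genes were: 1 was above 0 at an unadjusted p below 0.05, and DESeq2 and limma-voom called 0 higher. The median log2 difference was −0.153 over the 29 and 0.005 over all genes. As labelled 2 passed, Obp18a and Obp56d, with 3.02% of all genes, and with exchanged labels 8 passed, with 11.3% of all genes. Adult fat body markers summed to 4397 to 7922 CPM in females and 712 to 1048 CPM in males, and the 5 muscle markers to 11431 to 16797 CPM in females and 9626 to 12634 CPM in males. The part of these tissues in the sex differences was not tested.

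Obp18a and Obp19d, both on the X chromosome, had the smallest p-values. Obp18a was at 31.2, 36.5 and 34.1 CPM in HPS females of SD2, SD3 and SD6 and at 15.5, 19.3 and 20.7 CPM in HPS males. On LPS the females held 30.2, 37.2 and 38.5 CPM and the SD2 males 23.3 CPM. No male sample reached the lowest female sample. The log2 difference of males was −0.71 ± 0.09 (adjusted p = 0.000789), and it passed in all 21 alternatives, from −0.88 to −0.64. The libraries labelled male LPS SD3 and male LPS SD6 held 22.3 and 26.0 CPM, also below every female. Obp19d was at 228, 213 and 395 CPM in HPS females and 139, 123 and 251 CPM in HPS males, and in SD2 on LPS at 217 CPM in females and 162 CPM in males. Males were at 57.9% to 74.5% of females (−0.61 ± 0.07, adjusted p = 0.000351), although the sexes overlapped over lines.

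Obp99b was lower in males by 0.78 on the log2 scale (−0.78 ± 0.12, adjusted p = 0.00191), at 39.3% to 64.8% of females within pairs. It was the only member called by both diet and sex, and it was called by line as well.

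From the Obp56 cluster 4 genes passed. Obp56a was at 34.0, 9.88 and 10.8 CPM in HPS females of SD2, SD3 and SD6 and at 19.5, 3.84 and 8.53 CPM in HPS males. In SD2 on LPS it was at 35.9 CPM in females and 22.6 CPM in males (−0.67 ± 0.12, adjusted p = 0.00565). Obp56d was at 186, 498 and 306 CPM in HPS females and 111, 238 and 256 CPM in HPS males, and on LPS in SD2 at 264 and 160 CPM (−0.61 ± 0.13, adjusted p = 0.0138). The order of the sexes was thus the same in each line, within ranges set by line. Obp56e was at 450, 476 and 568 CPM in HPS females against 272, 194 and 472 CPM in HPS males (−0.59 ± 0.14, adjusted p = 0.0181). In SD2 on LPS Obp56e was at 510 CPM in females and 403 CPM in males. Its call was lost without male HPS SD2 (adjusted p = 0.0529) or female HPS SD2 (adjusted p = 0.0793). In the larger run alone edgeR called neither Obp56d (−0.52, adjusted p = 0.0547) nor Obp56e (−0.52, adjusted p = 0.0749). Obp56f was at 9.56, 6.37 and 4.98 CPM in HPS females, 6.63, 0.960 and 3.48 CPM in HPS males, and 7.04 and 4.50 CPM in LPS females and males of SD2 (−0.81 ± 0.22, adjusted p = 0.043). That call was lost in 8 of the 10 fits that leave out 1 sample, all but those without male HPS SD3 or female LPS SD6, with adjusted p from 0.0503 to 0.132.

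Among the members with a known role in males, Obp56h was at −0.04 ± 0.36 (95% interval −0.826 to 0.740) and Obp56g at 0.29 ± 0.21 (−0.162 to 0.751), neither called. lush was at 0.02 ± 0.11 (−0.230 to 0.267), Obp57a at 0.09 ± 0.20 and Obp99a at −0.15 ± 0.30.

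**Figure D4:**
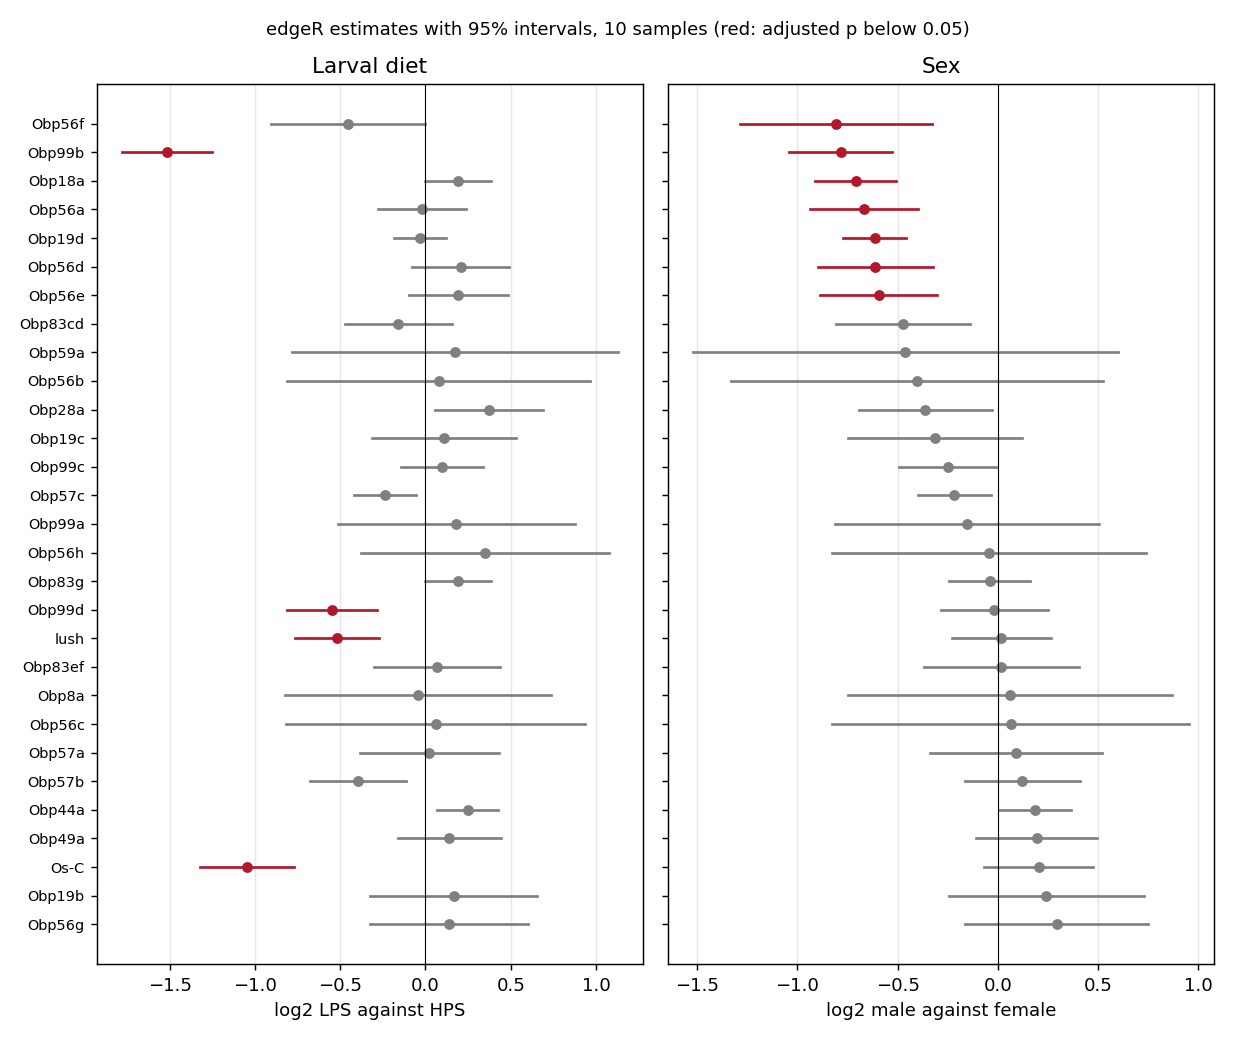
edgeR log2 differences of the 29 genes with 95% intervals for larval diet (LPS against HPS) and sex (male against female) over 10 samples, ordered by the sex value; red marks an adjusted p below 0.05. The 4 genes called by diet and the 7 called by sex all lie below 0, and Obp99b is in both groups.

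edgeR called no member for a diet effect that differed between sexes or lines, or for a sex effect that differed between lines. For diet by sex edgeR called 0 members and 0% of all genes, with 4 members at an unadjusted p below 0.05. DESeq2 and limma-voom also called 0. The smallest adjusted p was 0.955. For line by diet edgeR called 0 members and 0.0598% of all genes, with 6 members at an unadjusted p below 0.05; DESeq2 and limma-voom called 0. For line by sex edgeR called 0 members and 0% of all genes, with 9 at an unadjusted p below 0.05 and the smallest adjusted p at 0.151. DESeq2 called 1 there and limma-voom 0. In females alone diet was called in 2 members, Obp99b and Os-C (−1.11 ± 0.18, adjusted p = 0.0232), against 0.529% of all genes. Of 9 edgeR fits that leave out 1 sample, all 9 kept the Obp99b call. Only 5 kept that of Os-C, whose adjusted p reached 0.613. In males, where the only LPS sample has to be taken to vary as much as the others do, edgeR called 0 members and 0% of all genes, with 7 at an unadjusted p below 0.05. limma-voom called 0 there and DESeq2 1.

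Other chemosensory genes ranged from no reads to EbpIII, an abundant gene first known from the ejaculatory bulb, at 1128 CPM or more in each of the 10 samples. Of 79 listed receptors, co-receptors, membrane proteins and support cell genes, 32 could be tested. edgeR called 20 of them by line (35.5% of all genes), 1 by sex (7.96%) and 0 by diet (1.43%). The sex call was Ir75a, an olfactory ionotropic receptor, higher in males (1.24 ± 0.31, adjusted p = 0.0309). Gr21a, a subunit of the carbon dioxide receptor, was at 11.6, 7.02 and 4.36 CPM in SD3 (HPS males, HPS females and LPS females) and at or below 0.165 CPM in SD2 and SD6. The odorant receptor gene Or22a was at 0.189 to 0.825 CPM in SD2, at 0 to 0.120 CPM in SD3 and at 0 in SD6. It reached 10 reads only in SD2 libraries, so no test is given. Gr21a was likewise tested only through SD3 and the library labelled male LPS SD6, which held 6.94 CPM. Both are counted in the 20 called by line, where their part rests on the read filter. So does that of Or67d, which is also in the 20 and was tested only through SD2 and SD3. Orco was called in none of the comparisons.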

How the data were processed

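Reads per gene were counted in 13 libraries of 12 head RNA pools. The deposited values are raw whole-number counts. The kit was stranded and selected poly(A) RNA, and reads were single ends of 75 bp, per the labels' protocols. Tools named in the submitters' processing notes are HTSeq 0.6.1p1, TopHat2 2.1.0, CASAVA 1.8.2 and bcl2fastq 1.8. Per the names of the deposited files, only reads with a unique place in the genome were counted, on the strand this kit gives, so those shared by close paralogs are missing. The genome build is not given in the sources used here; symbols and coordinates come from the Ensembl annotation of BDGP6.54. Spike-ins and summary entries were left out.

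Genes with 10 or more reads in at least 3 libraries (10028) were tested with edgeR 4.0.16 (TMM, quasi-likelihood) in R 4.3.3, in an additive fit of line, sex and diet over 10 samples, with Benjamini-Hochberg adjustment and a threshold of 0.05. The error is the spread around that fit, since each combination was 1 pool. CPM are TMM-scaled. The replicate number is the line: samples of 1 line deviated together (r = 0.620 to 0.786 over 9 pairs; −0.464 to −0.232 over 18 pairs of different lines), so line is a block. The 2 libraries of 1 pool differed by more than counting noise (chi-square 13.0 per degree of freedom over 10118 genes). DESeq2 1.42.0, limma-voom (limma 3.58.1), RLE scaling, other filters and other sample sets were alternatives. The statistics were tested on simulated data.

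The members and lists were chosen with earlier results of these data known. Levels are printed for every sample for Obp99a, Obp99b, Obp57a, lush and the members called, up to 12 per comparison. Depth sets the floor: 3 reads correspond to 0.109 to 0.382 CPM. Floors and the intervals of read ratios cover counting error only. The intervals of edgeR differences rest on their SE and so include the spread around the fit.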

Additional observations from a re-analysis of the deposited data

Results flagged for a closer look

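In groups of 4 samples of 1 line as labelled, 48 groups were examined for a sample far from the others, and 5 were marked, where chance marks about 1 in 20 groups. All 5 lie in the 2 libraries with a doubtful line label. The library labelled male LPS SD3 held 139.8 CPM of Obp99a, against 0.960 to 1.94 CPM in the remaining SD3 samples. For that labelled male LPS SD6, lush was at 98.1 CPM (others of SD6 25.4 to 37.8 CPM), Obp28a at 4.28 CPM (0.201 to 0.465 CPM), Obp59a at 4.40 CPM (0 to 0.066 CPM) and Obp57c at 200.4 CPM (129 to 135 CPM). The Obp57c value also lies above every SD3 sample.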

How the results depend on the processing

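Each count of members called was recomputed under up to 21 alternatives; the share of all genes called follows each in brackets. With all samples as labelled the counts were 0 for diet (0.0997%), 2 for sex (3.02%), 9 for line (9.17%), 10 for SD6 against SD2 (10.1%), 0 for SD6 against SD3 (0%) and 0 for diet in females (0%). With exchanged line labels they were 2 for diet (1.71%), 1 for diet in females (0.279%) and 1 in males (0.12%). With no replicate block (line left out of the fit) they were 0 for diet (0%), 1 for sex (0.818%) and 0 for diet in females (0%). With no filter they were 2 for line by diet (0.69%), 7 for line by sex (2.18%), 4 for diet in females (1.46%) and 2 in males (0.418%). DESeq2 gave 1 for line by sex (0.279%) and 1 for diet in males (0.299%). Leaving out 1 sample gave 1 to 4 for diet (0.279% to 2.09%), 5 to 7 for sex (2.81% to 7.31%), 17 to 22 for line (25.9% to 35.5%), 11 to 15 for SD3 against SD2 (13.6% to 24.5%), 12 to 17 for SD6 against SD2 (14.1% to 24.9%) and 8 to 13 for SD6 against SD3 (11.9% to 20.5%). It gave 1 to 3 for diet in females (0.0399% to 1.21%), 0 to 1 in males (0% to 0.12%), 0 to 2 for line by diet (0% to 0.209%), 0 to 2 for line by sex (0% to 0.249%) and 0 to 0 for diet by sex (0% to 0.0399%); some interactions could not be fitted there. No paired analysis was possible for line because the replicate number is the line. Limited to the larger run, an alternative chosen after seeing the data, the counts were 3 for diet (1.17%), 5 for sex (4.95%) and 20 for line (31.5%). The block by line and sex, or by line and diet, changed no count by over 1.5 times.

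Single genes gave 906 values over 46 results: 803 kept direction and side of the threshold, 78 lost the call and 25 changed sign, all of the latter uncalled. The diet value of Obp99a was −0.89 without the block and −0.0025 to 1.10 with 1 sample left out. That of Obp57a was −0.069 with the first library only, −0.90 without the block, −0.052 with the block by line and sex, −0.057 in the larger run and −0.19 to 0.23 with 1 sample left out. The sex value of Obp99a was 0.76 as labelled, 0.020 with limma-voom, 0.032 in the larger run and −1.26 to 0.12 with 1 sample left out. That of Obp57a was −0.012 with the first library only, −0.90 without the block and −0.045 in the larger run. That of lush was −0.077, −0.14 and −0.062 under the same 3 settings and −0.11 to 0.15 with 1 sample left out. The cause of these shifts was not tested. Depth limits Obp59a, Obp56b, Obp56c and Obp8a most.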
